A study of Mus musculus with 4 samples.

Results

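The semaphorins, plexins and neuropilins were followed at the transcript level in NIH/3T3 mouse fibroblasts after siRNA knockdown of *Setd2*. Members were all protein-coding transcripts whose gene symbol named a semaphorin, a plexin or a neuropilin. The family was singled out because of the rise of *Sema7a* in this same comparison, so the values of *Sema7a* are given as a description without a test. Of 34200 transcripts of 21945 genes in the deposited transcript table, 47 transcripts of 27 genes were members. They came from 16 semaphorin genes, which encode the ligands, and 11 receptor genes, made up of 9 plexins and both neuropilins. *Sema3d*, *Sema4f*, *Sema5b* and *Sema6a* match the same rule in the annotation and were not analysed here.

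Semaphorins are secreted or membrane-bound ligands that steer migrating cells and growing axons, mostly by loosening adhesion and the actin cytoskeleton. Plexins are their receptors and act inside the cell as GTPase-activating proteins for small Ras-family GTPases. Most secreted class 3 semaphorins bind the plexins through neuropilins, which also bind VEGF, whereas membrane-bound semaphorins of the other classes usually bind plexins directly. In fibroblasts and other adherent cells the family is known for its effects on cell shape, integrin adhesion and motility.

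NIH/3T3 is an immortalised mouse embryonic fibroblast line, and SETD2 is the methyltransferase that places trimethylation on lysine 36 of histone H3. The KD group comprised 2 libraries of cells transfected with *Setd2*-specific siRNAs, and the WT group, as the labels call it, comprised 2 libraries of cells that received Scrambled siRNA. Both groups were transfected by a lipid reagent at 10 nM siRNA, and polyadenylated RNA was taken after 48 h for stranded mRNA-seq. The methods describe a mixture of *Setd2* siRNAs, so the effects of single siRNAs cannot be told apart. The series text speaks of independent transfections without saying which library came from which.

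The deposited table gives each transcript's mean over the 4 libraries, the KD minus WT difference and variances, and it gives neither values of single libraries nor read totals. Levels are therefore geometric group means of normalised estimated counts. Errors are moderated standard errors of the log2(fold change), in which limma draws each within-group variance towards its trend with mean level over all transcripts. The depth of each library is unknown from this table, and with 2 libraries against 2 an exact permutation test of one transcript could not give a p-value below 0.333. *Setd2* itself was at 923 normalised counts in KD and 3680 in WT, a fall by 74.9%, with a log2(fold change) of −1.99 ± 0.081 (adjusted p = 0.0144). In bulk RNA a lower level in every cell and fewer cells that express a gene cannot be told apart. All 8 fibroblast markers examined had tested transcripts, with summed levels per gene from 2723 to 346235 in WT and from 3501 to 388093 in KD. Among these markers *Col1a1* and *Col1a2*, the chains of type I collagen, fell by 0.68 ± 0.11 and 0.68 ± 0.078 on the log2 scale (adjusted p = 0.0368 and 0.0218). The fibronectin (*Fn1*) transcript with the largest called difference, a minor one of 6, rose by 1.25 ± 0.22 from 7616 to 18123 (adjusted p = 0.0397). The summed *Fn1* level rose by 0.49, from 276425 to 388093. The other 5 markers, *Vim*, *Thy1*, *Pdgfrb*, *S100a4* and *Fbn1*, had no transcript called by limma's moderated test. Of 17 markers of epithelial, endothelial, leukocyte, neuronal and glial cells, 11 had a tested transcript and none of these was called by limma's moderated test or by a z test, with 4 at an unadjusted p below 0.05. Their highest summed level was that of *Cd68*, with 303 in WT and 391 in KD, while *Epcam*, *Krt18*, *Map2*, *Rbfox3*, *Sox10* and *Gfap* had no tested transcript.

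Before any change, the family was spread over more than 3 orders of magnitude in WT. Per kb of transcript, which allows levels of different genes to be set side by side, *Plxnb2* was at 2198 and *Sema3a* at 2015 normalised counts per kb in WT. They were followed by *Nrp1* at 1490, *Plxna1* at 776, *Sema3f* at 683, *Nrp2* at 626 and *Plxna3* at 403. At the other end, 8 genes had no transcript with a mean level of 100, namely *Sema3c*, *Sema3e*, *Sema3g*, *Sema4a*, *Sema4d*, *Sema6d*, *Plxnb3* and *Plxnc1*. The last pair, both receptors, were at 1.34 and 1.69 normalised counts per kb in WT.

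**Figure D1:**
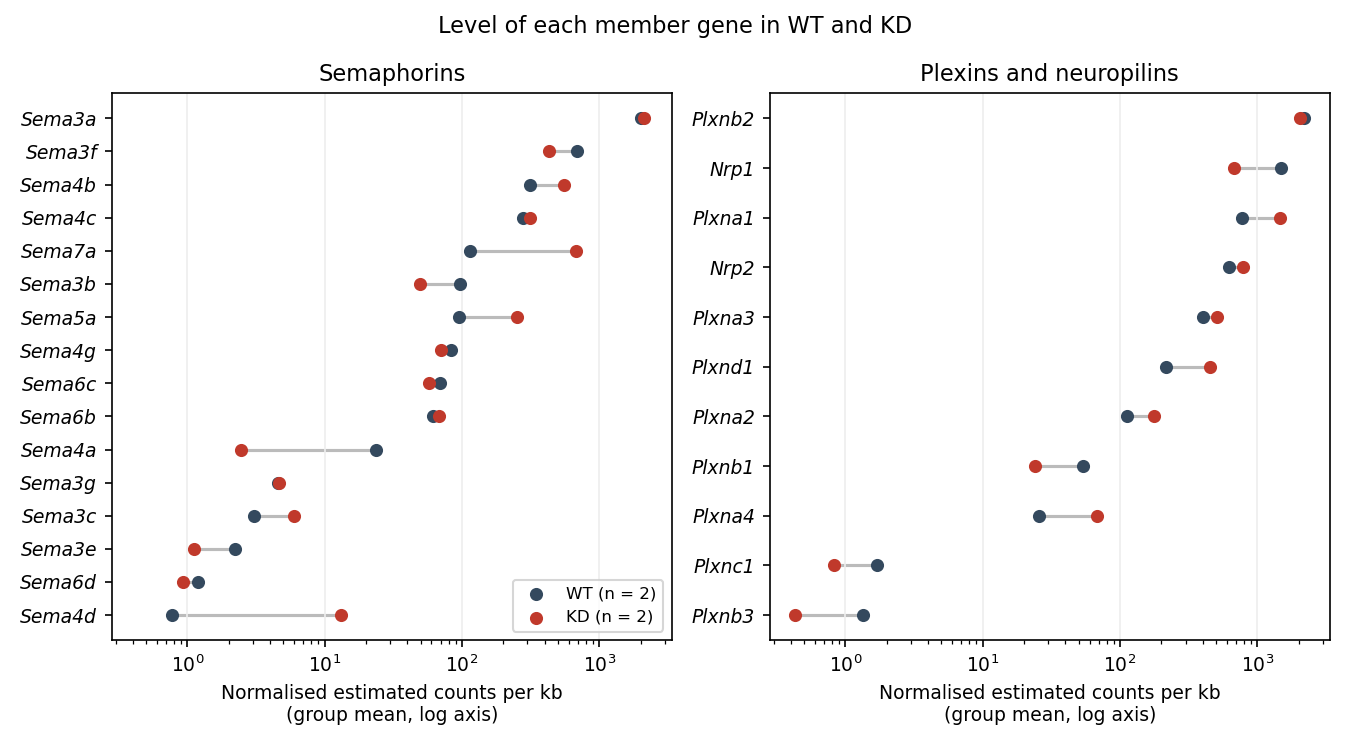
Level of the 27 member genes, as normalised estimated counts per kb of transcript on a log axis, summed over tested transcripts, in WT (dark) and KD (red); points are group means of 2 libraries and no error is drawn. *Sema7a* moved from 113 to 681 per kb and *Nrp1* from 1490 to 677, while *Sema3a* and *Plxnb2* lay between 2015 and 2198 in both groups.

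A transcript was called when its adjusted p was below 0.05 in a moderated test over the whole table. Leaving out *Sema7a*, which is not tested, 11 of the 46 other member transcripts were called, where 9.68% of all transcripts were. Among the 18808 transcripts with a mean level of 100 or more the share called was 15.6%. Of the 11 called members, 6 were called higher in KD (5.44% of all transcripts were) and 5 were called lower (4.24%). Each called transcript belonged to a different gene, so that 6 of 26 genes were called higher, where 7.47% of all genes were, and 5 were called lower, where 5.93% were. No gene had calls in both directions. Since the family was picked on a value of this comparison, these counts describe the members and support nothing further. For 27 of the 46 transcripts the within-group spread was too small for the KD and WT libraries to overlap, and this held for 54.8% of all transcripts. The median log2(fold change) of the members was −0.070, beside −0.011 for all transcripts, with 22 positive and 25 negative differences, *Sema7a* included. With a single prior variance in place of one that follows the level, 1 member transcript was called, that of *Sema4a*, and 127 (0.371%) of all transcripts.

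**Figure D2:**
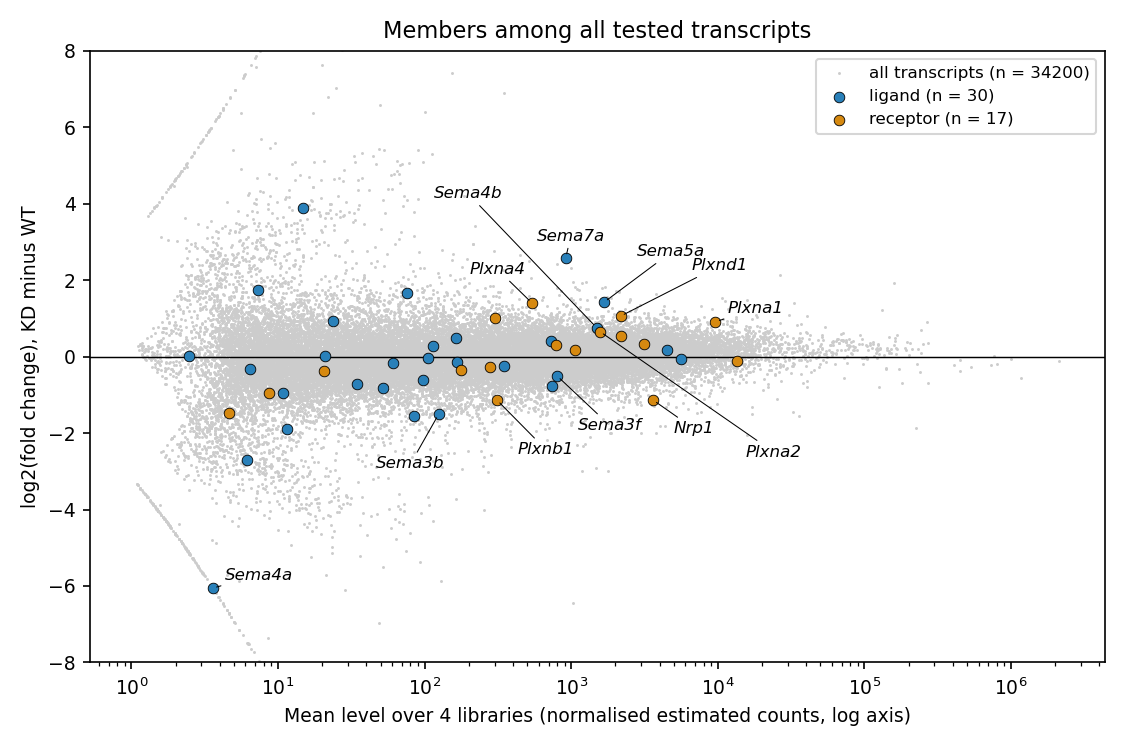
Mean level over 4 libraries (normalised estimated counts, log axis) against log2(fold change), KD minus WT, for all 34200 transcripts (grey, 16 of them beyond the limits of 8 on the vertical axis), 30 ligand transcripts (blue) and 17 receptor transcripts (orange), with *Sema7a* and the 11 called members named. *Sema7a* lies at 2.58, and of the called members all but *Sema4a* have mean levels above 100. The *Sema4a* point, at 0 in KD, is a fitted value that depends on the 0.5 added to the counts.

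Among ligand transcripts with a mean level of 100 or more, those of *Sema7a*, on which the family was picked, and *Sema5a* had the largest increases. *Sema7a* encodes the only semaphorin anchored to the membrane by glycosylphosphatidylinositol, and it is known to act through integrin β1 and through plexin C1. Its single tested transcript (ENSMUST00000043059.8, chr9:57940113-57962865 of GRCm38, 14 exons, plus strand) was at 374 normalised counts in WT and 2246 in KD. The difference was 2.58 ± 0.15 on the log2 scale, or 6.00-fold. It ranked 14th from the top of the 18808 transcripts with a mean level of 100 or more, and within the semaphorins *Sema7a* moved from the fifth highest level per kb in WT to the second highest in KD, behind *Sema3a*. *Sema5a*, a transmembrane semaphorin with thrombospondin repeats, rose from 1022 to 2739 (log2(fold change) 1.42 ± 0.086, adjusted p = 0.0152). *Sema4b*, a class 4 transmembrane semaphorin, rose from 1145 to 1936 through its abundant transcript (0.76 ± 0.091, adjusted p = 0.0237). Its minor transcript was at 42.6 in WT and 136 in KD with a much wider error (1.67 ± 0.68, adjusted p = 0.201).

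The 250 bases before the RefSeq start (GRCm38.p6) are shown for this pair of ligands, with each CpG in capitals, because members of the family share the CpG-rich kind of start described further on. Both windows were rich in CpG, with 17 CpG each, and the *Sema5a* window holds a run of GC boxes (GGGCGG) towards its 3′ end.
Sema7a, chr9:57939862-57940111, plus strand: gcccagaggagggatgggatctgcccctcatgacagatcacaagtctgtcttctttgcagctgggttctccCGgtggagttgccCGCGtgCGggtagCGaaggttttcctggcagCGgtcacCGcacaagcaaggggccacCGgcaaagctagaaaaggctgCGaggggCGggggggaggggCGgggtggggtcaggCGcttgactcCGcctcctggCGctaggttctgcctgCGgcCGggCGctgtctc
Sema5a, chr15:32244563-32244812, plus strand: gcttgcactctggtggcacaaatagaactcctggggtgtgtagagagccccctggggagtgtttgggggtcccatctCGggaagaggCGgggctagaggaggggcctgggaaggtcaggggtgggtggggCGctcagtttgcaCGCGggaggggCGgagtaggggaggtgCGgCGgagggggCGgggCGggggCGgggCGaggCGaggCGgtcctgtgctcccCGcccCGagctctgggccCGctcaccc

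Of the 6 secreted class 3 ligands, 2 had a transcript that was called lower and none had one that was called higher, where 5.93% and 7.47% of all genes were. *Sema3b* and *Sema3f*, both known for suppressing tumour growth and vessel formation, each had a transcript that fell. The *Sema3b* transcript ENSMUST00000102530.7 fell from 211 to 73.8 (−1.51 ± 0.16, adjusted p = 0.0199). The *Sema3f* transcript ENSMUST00000080560.8 fell from 952 to 672 (−0.50 ± 0.095, adjusted p = 0.0455). The second *Sema3f* transcript was at 959 in WT and 561 in KD without passing the test (−0.77 ± 0.18, adjusted p = 0.0646), so both isoforms of *Sema3f* had lower levels in KD. *Sema3a*, the axon-repelling founder of the class and the most abundant semaphorin here, showed −0.07 ± 0.12 (adjusted p = 0.746) and 0.17 ± 0.081 (adjusted p = 0.246) for its 2 transcripts. The 95% interval of the more abundant one ran from −0.38 to 0.24, which leaves out differences as large as that of *Sema3f*.

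The other class 3 members were scarce. *Sema3c* was at 16.9 in WT and 32.8 in KD (0.93 ± 0.35, adjusted p = 0.173), and *Sema3e*, the ligand of plexin D1, was at 15.3 and 7.63 (−0.96 ± 0.55, adjusted p = 0.333). *Sema3g* was at 20.7 in WT and 21.0 in KD. At such levels only large differences were detectable.

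The remaining membrane-bound semaphorins were mostly not called. In class 4, a shorter *Sema4a* transcript (ENSMUST00000107531.7, coding length 1884 bases against 2280 for the other 2) was at 32.8 in WT and at 0 in KD, which is at least 10.9-fold lower when 3 counts per library are taken as the floor (adjusted p = 0.0215). Its call rested on a low level, and the standard deviation due to read assignment, 2.07 on the log2 scale, was well above the 0.30 between libraries. The other *Sema4a* transcripts were at 22.6 and 16.5 in WT and at 5.70 and 2.09 in KD, with standard errors of 2.47 and 1.67. *Sema4c*, which binds plexin B2, had 4 transcripts of the same coding length. The most abundant was at 632 in WT and 835 in KD (0.40 ± 0.15, adjusted p = 0.174). *Sema4d*, the ligand of plexin B1, was at 3.46 in WT and 58.6 in KD. This difference of 3.90 came with a standard error of 1.99, the spread within groups left room for the libraries to overlap, and it was not called (adjusted p = 0.281). *Sema4g* was at 381 in WT and 320 in KD (−0.25 ± 0.29, adjusted p = 0.623). In class 6, whose members bind A-type plexins, none of the 7 transcripts was called by limma's moderated test or by the z test, and 1, of *Sema6c*, had an unadjusted p below 0.05. The most abundant transcript of *Sema6b* had a difference of 0.27 ± 0.29 (adjusted p = 0.582) and that of *Sema6c* −0.13 ± 0.20 (adjusted p = 0.726). *Sema6d* was at 7.32 in WT and 5.72 in KD.

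**Figure D3:**
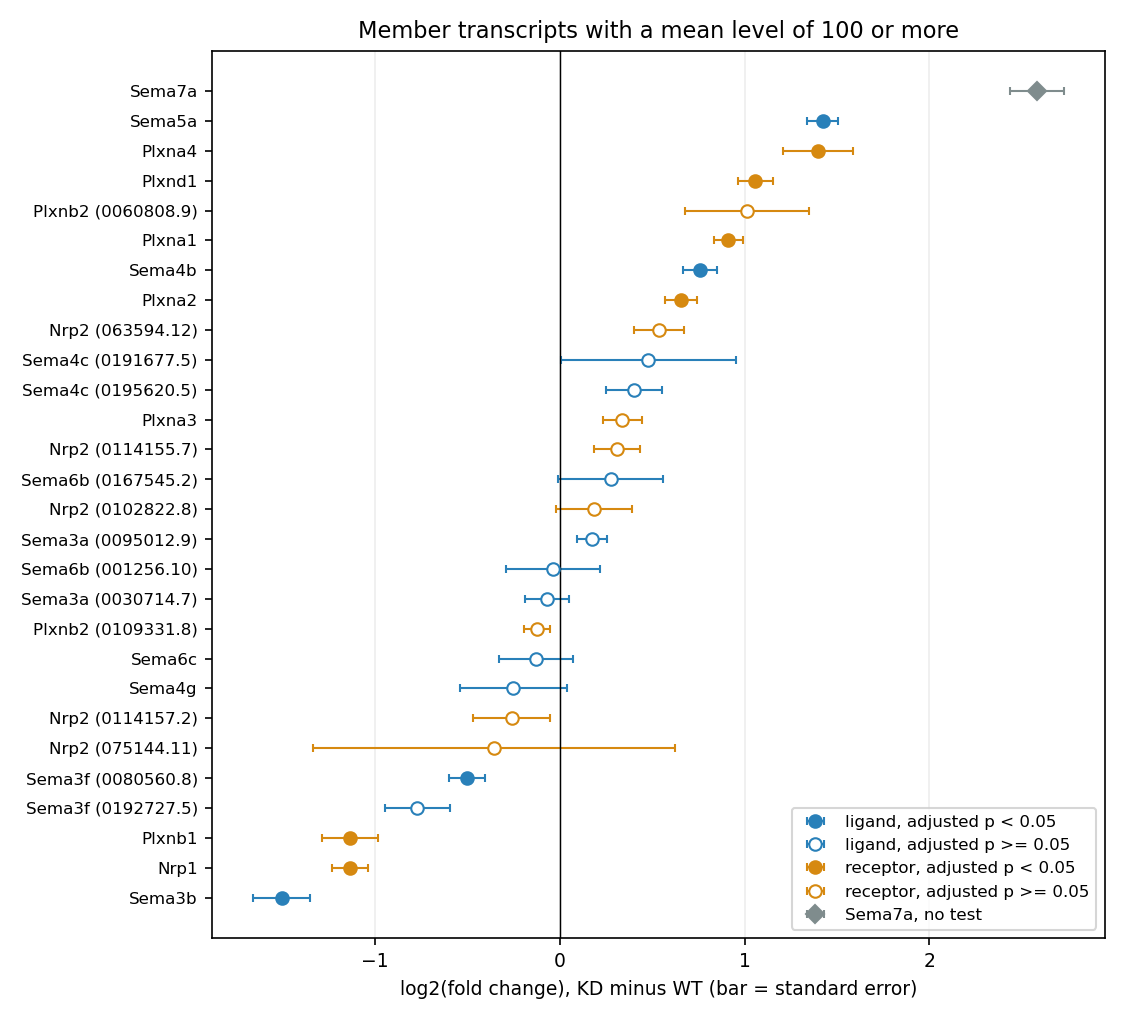
log2(fold change), KD minus WT, with standard error (bars, 2 libraries per group) for the 28 member transcripts with a mean level of 100 or more, ligands in blue and receptors in orange, called transcripts filled and *Sema7a*, which is not tested, in grey. The called transcripts shown run from −1.51 for *Sema3b* to 1.42 for *Sema5a*, and genes with several transcripts carry the end of the transcript identifier.

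Among the receptors, 3 A-type plexins and plexin D1 rose while *Nrp1* and *Plxnb1* fell. All 4 A-type plexins, the signalling partners of neuropilins, had positive differences with libraries that could not overlap, as held for 54.8% of all transcripts in either direction. Of the 4, 3 were called, where 5.44% of all transcripts were called higher. All 4 had mean levels above 100. Of the 18808 transcripts at 100 or more, 65.3% had libraries that could not overlap and 1711 were called higher. *Plxna1* rose from 7013 to 13195 (log2(fold change) 0.91 ± 0.078, adjusted p = 0.0171). *Plxna4* rose from 333 to 878 (1.40 ± 0.19, adjusted p = 0.0268) and *Plxna2* from 1250 to 1969 (0.65 ± 0.086, adjusted p = 0.0263). *Plxna3* was at 2798 in WT and 3539 in KD and did not pass the test (0.34 ± 0.11, adjusted p = 0.127). *Plxnd1*, best known for guiding blood vessels in response to semaphorin 3E, rose from 1503 to 3128 (1.06 ± 0.095, adjusted p = 0.0182).

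*Nrp1* fell from 5359 to 2437, by 54.5%, with a log2(fold change) of −1.14 ± 0.099 (adjusted p = 0.0173). It was the third most abundant member gene per kb in WT and the sixth in KD, where *Plxna1* and *Nrp2* had higher levels per kb. *Plxnb1* fell from 462 to 210, also by 54.5% (−1.14 ± 0.15, adjusted p = 0.0270). The close relative *Plxnb2* was not called. Its main transcript was at 14064 in WT and 12916 in KD (−0.12 ± 0.070, adjusted p = 0.324), and the 95% interval from −0.31 to 0.060 did not reach the value of *Plxnb1*. A second *Plxnb2* transcript, at 213 in WT and 429 in KD, was not called (1.01 ± 0.34, adjusted p = 0.137). *Plxnb3* was at 8.07 in WT and 2.60 in KD, and *Plxnc1*, a known receptor of semaphorin 7A, was at 12.3 and 6.07 (−0.96 ± 0.45, adjusted p = 0.251). *Itgb1*, the integrin subunit that also binds semaphorin 7A, was at 30051 in WT and 25632 in KD (−0.23 ± 0.10, adjusted p = 0.220).

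No transcript of *Nrp2* was called, and the most abundant had a difference opposite in direction to that of *Nrp1*. It was at 1807 in WT and 2620 in KD (0.54 ± 0.14, adjusted p = 0.0800). The 95% intervals, which are not adjusted for the number of tests, lay apart, at 0.18 to 0.89 against −1.40 to −0.88 for *Nrp1*. The next 2 transcripts of *Nrp2* differed by 0.18 ± 0.21 and 0.31 ± 0.13, and the 3 scarcer ones by −0.26 ± 0.21, −0.36 ± 0.98 and −0.37 ± 0.65. Per kb, *Nrp1* was above *Nrp2* in WT (1490 against 626) and below it in KD (677 against 784).

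The corresponding windows of the pair of receptors that were called lower are shown in the same way, to set beside those of *Sema7a* and *Sema5a*. The *Nrp1* window ends 211 bases before the tested transcript and holds 11 CpG. It lies within the annotated gene, which starts at 128358604. For *Plxnb1* the 203 bases up to the annotated transcript are given, which hold 24 CpG.
Nrp1, chr8:128358823-128359072, plus strand: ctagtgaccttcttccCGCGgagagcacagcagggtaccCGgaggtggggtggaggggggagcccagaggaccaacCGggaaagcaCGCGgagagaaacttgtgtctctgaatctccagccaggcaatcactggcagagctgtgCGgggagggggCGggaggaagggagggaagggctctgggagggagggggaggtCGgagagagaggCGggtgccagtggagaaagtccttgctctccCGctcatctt
Plxnb1, chr9:109095186-109095388, plus strand: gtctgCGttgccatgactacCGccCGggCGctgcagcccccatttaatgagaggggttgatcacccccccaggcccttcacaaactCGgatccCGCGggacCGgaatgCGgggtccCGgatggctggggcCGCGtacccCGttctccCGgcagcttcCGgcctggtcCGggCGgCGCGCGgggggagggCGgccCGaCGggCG

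Of the 23 member genes matched to a RefSeq start, 21 had one within 1000 bases of the start of their most abundant transcript. In the 250 bases upstream of the RefSeq start these 21 had a median GC content of 66.4% and a median of 17 CpG, compared with 52.4% and 6 for 32841 RefSeq starts of all kinds. Some of these windows lie partly within the annotated transcript, as for *Sema4b* and *Sema4g*, and that of *Sema3c* lies wholly within it. GGGCGG, the core of the Sp1 site, was found on either strand in 20 of 21 windows, and in 32.7% of all windows. TGANTCA, bound by AP-1, was found in 1 of 21 against 6.75% of all, and the E-box CACGTG in 2 of 21 against 6.02%. GGAATG, the TEAD core, was found in 2 of 21 against 12.6%, and TGACGTCA, the cAMP response element, in none against 1.55%. Counted by their most abundant transcript, all 4 matched genes called higher, both matched genes called lower and *Sema7a* held GGGCGG. Of the 21, 14 were not called, and 13 of these held it too. *Plxna1*, *Plxna4*, *Sema3b* and *Sema3f* had no matched start. These are matches of letters and not measured binding.

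In genes with several tested transcripts, the differences of single isoforms could be compared. The called *Sema3b* transcript made up 66.0% of the summed *Sema3b* level in WT and 46.6% in KD, while the second transcript, of identical coding length, was at 64.5 in WT and 57.8 in KD (−0.16 ± 0.28, adjusted p = 0.763). The sum over 3 *Sema3b* transcripts was 319 in WT and 158 in KD. The spread between libraries of the called *Sema3b* transcript, 0.018 on the log2 scale, was far below the 0.24 due to read assignment among isoforms. The called *Sema4a* transcript made up 45.6% of its gene in WT and close to none in KD. In *Sema4c* the most abundant transcript made up 61.0% in WT and 72.2% in KD, and in *Nrp2* the most abundant made up 44.7% and 51.8%. These shares carry no error of their own, because values of single libraries are not given.

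**Figure D4:**
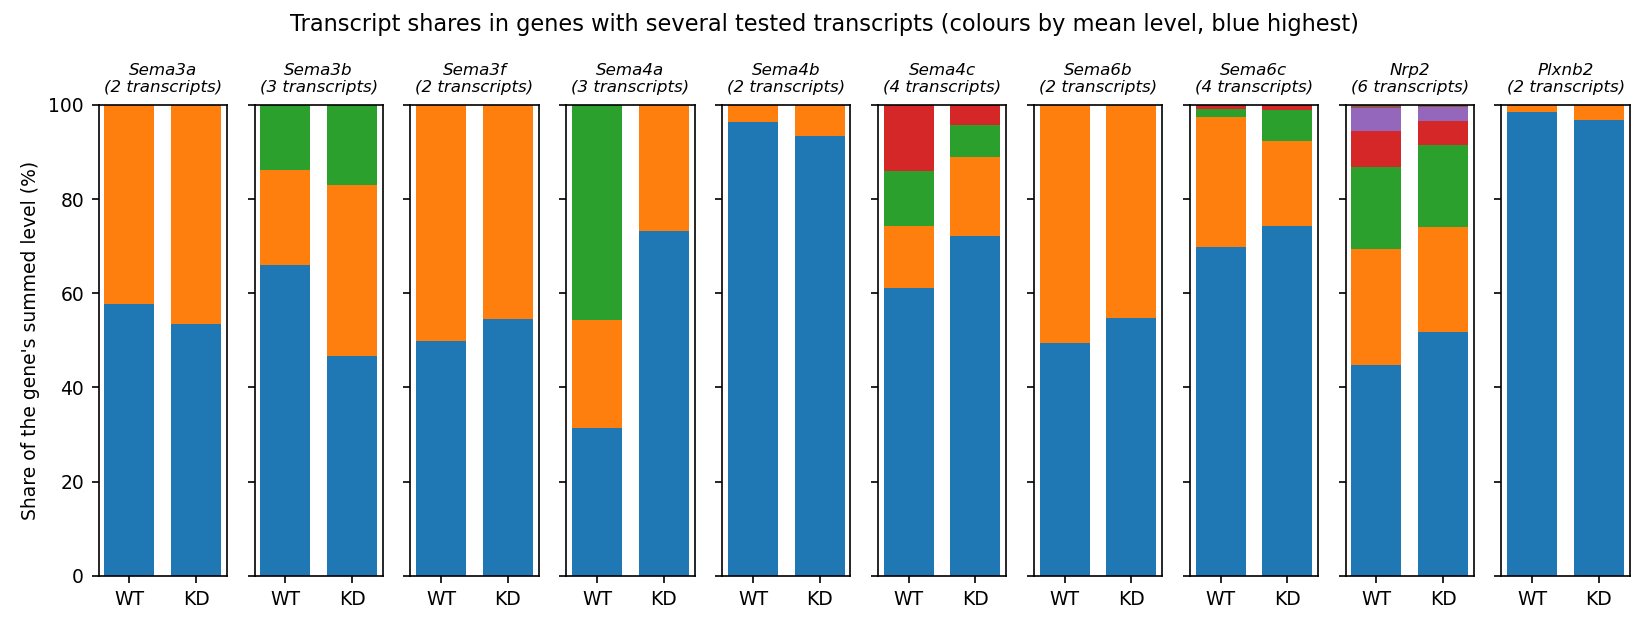
Share of each tested transcript in the summed level of its gene (%), WT and KD, for the 10 member genes with several tested transcripts. Colours order the transcripts of a gene by mean level, and each share is computed from geometric group means of 2 libraries. The dominant *Sema3b* transcript goes from 66.0% to 46.6%, and *Sema4b* and *Plxnb2* are each carried by 1 transcript in both groups.

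By position, *Sema3b* and *Sema3f* lie 72.3 kb apart on chromosome 9, with 3 protein-coding genes between them, and *Plxnb1* lies 1.41 Mb from *Setd2* on the same chromosome. All 3 genes are within 3 Mb of *Setd2* and each had a transcript that was called lower, where 5.93% of all genes did. Of the 198 other transcripts in that window, which was chosen after the values were seen, 8 were called lower and 15 higher. These are 4.04% and 7.58%, where 4.24% and 5.44% of all transcripts were. The median log2(fold change) of the 198 was 0.081. *Gnai2*, which lies between *Sema3b* and *Sema3f*, had differences of 0.26 ± 0.069 and 0.49 ± 0.12 for its 2 abundant transcripts (adjusted p = 0.0857 and 0.0746) and of −2.72 ± 1.03 for one with a mean level of 2.00 (adjusted p = 0.176). *Gnat1*, also between them, was scarce and had a difference of −0.96 ± 0.42 (adjusted p = 0.220). *Slc38a3*, the remaining gene between them, had no tested transcript.

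Downstream of the receptors, a list of 71 further genes of semaphorin signalling was examined, of which 61 had a tested transcript. In this list 11 genes were called higher and 4 were called lower, beside 7.47% and 5.93% of all genes. Most list genes were well expressed, and among transcripts with a mean level of 100 or more, 1511 of 12022 genes were called higher and 1118 lower. A single prior variance kept 1 of the 15 called list genes, *Ssh1*, and the z test called 24. None of the 10 tested co-receptors, *Met*, *Erbb2* and *Itgb1* among them, was called by limma's moderated test. Of these 10, 5 had a transcript at an unadjusted p below 0.05. The z test called 4, namely *Flt1*, *Itga1*, *Ptk7* and *Trem2*. By their most abundant transcript these differed by 0.61 ± 0.18, −1.41 ± 0.31, −0.24 ± 0.088 and 0.47 ± 0.13. *Vegfa*, the growth factor that shares the neuropilins with class 3 semaphorins, was called higher in 4 of 5 transcripts, and its summed level went from 5717 to 11874. Its transcript with the largest difference rose by 1.45 ± 0.15 (adjusted p = 0.0192).

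Of 46 tested transducers, 13 had a called transcript and 33 did not. Counted by symbol, 2899 of all 21927 genes had one. Among transcripts with a mean level of 100 or more, 2610 of 12022 genes had one. *Cfl1*, the actin-severing protein cofilin, rose in both tested transcripts, the larger rise from 9256 to 17336 (0.91 ± 0.070, adjusted p = 0.0162). *Limk2*, a kinase that inactivates cofilin, fell in 1 of 4 transcripts from 776 to 447 (−0.80 ± 0.10, adjusted p = 0.0262). The summed *Limk2* level was 2576 in WT and 1997 in KD. *Limk1*, on the same list, was not called. Its most abundant transcript was at 2105 in WT and 2469 in KD (0.23 ± 0.075, adjusted p = 0.131). A scarce transcript of *Ssh1*, a phosphatase that reactivates cofilin, was at 0 in WT and 44.6 in KD, at least 14.9-fold higher at a floor of 3 counts per library (adjusted p = 0.0190), while the summed *Ssh1* level was 1374 in WT and 1660 in KD. The Rnd GTPases, which bind plexins directly, split: *Rnd1* rose from 760 to 1338 (0.81 ± 0.084, adjusted p = 0.0199) and *Rnd3* fell from 1609 to 806 (−0.996 ± 0.096, adjusted p = 0.0190). *Src* rose in 1 of 4 transcripts from 728 to 1701 (1.22 ± 0.17, adjusted p = 0.0290), and *Dpysl3*, of the collapsin response mediator family, from 3945 to 7044 (0.84 ± 0.065, adjusted p = 0.0162). *Gsk3b* fell from 3721 to 2701 (−0.46 ± 0.074, adjusted p = 0.0350), and *Adam10*, a protease that sheds membrane proteins, from 8639 to 6028 (−0.52 ± 0.072, adjusted p = 0.0280). *Mras*, *Rap1b*, *Rhoa*, *Gsk3a* and *Rac1* were also called higher.

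**Figure D5:**
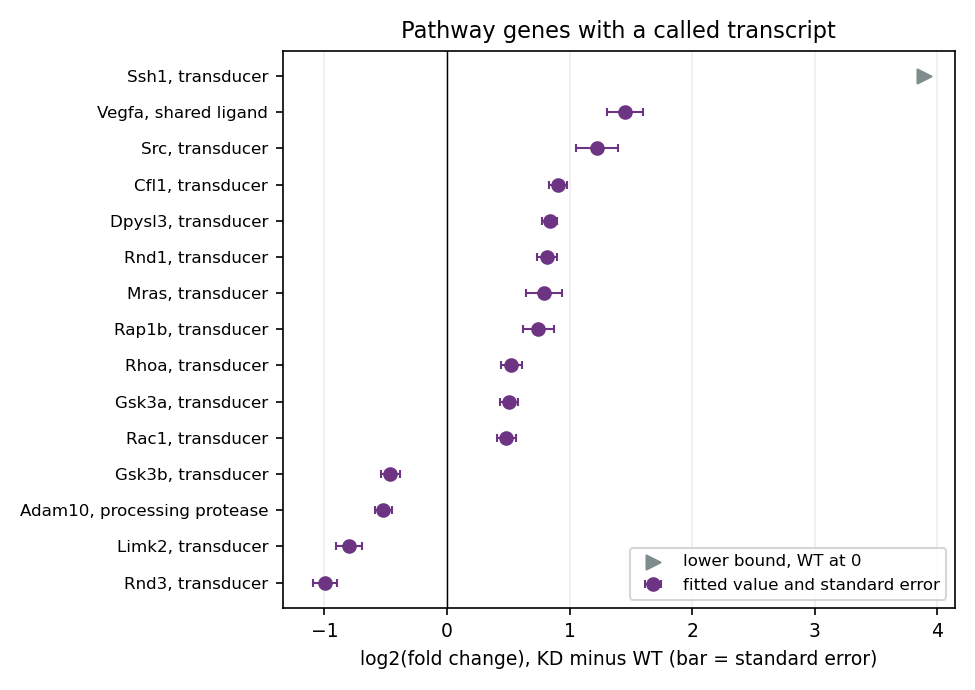
log2(fold change), KD minus WT, with standard error, for the transcript with the largest called difference in each of the 15 pathway genes that had a called transcript (2 libraries per group). Of the 15, 11 genes lie above 0, with *Ssh1*, at 0 in WT, drawn at its lower bound of 3.89 without an error, and *Gsk3b*, *Adam10*, *Limk2* and *Rnd3* lie below 0.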

How the data were processed

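mRNA-seq of NIH/3T3 cells was analysed, with 2 KD and 2 WT (Scrambled) libraries grouped by the condition in their labels. The authors trimmed adapters with BBDuk, quantified reads with Kallisto and fitted Sleuth, and the submitters' processing notes name the build GRCm38. The deposited means and effects are natural logs of size-factor-normalised estimated counts plus 0.5, as the authors obtained them in Sleuth, and other deposited columns hold variances on that scale. The authors' likelihood ratio and Wald p-values and q-values, which also make up the deposited gene table, were not used. The authors' effect was used only as the source of the group means.

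The within-group sum of squares was recovered from the deposited variances. On all 34200 transcripts the identity that links these columns held to 2.13e-13. Group levels were the exponentials of the group means, less 0.5, and so are linear normalised estimated counts. KD and WT were compared by a two-sided moderated test (squeezeVar of limma 3.58.1 in R 4.3.3, trend on the mean, 2 residual degrees of freedom) with Benjamini-Hochberg adjustment over all transcripts at 0.05. Libraries were taken not to overlap where the squared difference exceeded the within-group sum of squares. The procedure was tested on simulated data. The series text speaks of independent transfections but does not tie libraries to them. The p-values therefore measure only the spread between these libraries, shared in part over transcripts by the moderation. Positions and lengths are those of GENCODE M21, which matched all 47 member transcripts, and levels per kb use full transcript length.

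The members, lists and tests were chosen with earlier results of these data known. Every member gene was to be named, by its called transcript or its most abundant one, and of the pathway list the 6 largest rises and 6 largest falls. The *Gnai2* and *Gnat1* values were added after they were seen. Alternatives were a z test, a single prior variance, a minimum mean level of 100, centring on the median difference of transcripts above that level (0.048) and sums over transcripts. The z test used the authors' shrunken variance between libraries, from their Sleuth fit, plus the variance of read assignment.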

Additional observations from a re-analysis of the deposited data

How the results depend on the processing

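*Sema7a* is left out of these counts. A z test called 13 member transcripts and 18.2% of all transcripts, a minimum mean level of 100 called 12 and 26.4% of the 18808 that remained, and centring called 11 and 9.26%. With a single prior variance for all levels instead of a trend, 1 member transcript of 1 gene (the *Sema4a* transcript), 1 pathway gene and 127 transcripts in all were called, and the adjusted p of the other called members ran from 0.0714 to 0.145. The z test called 24 pathway genes and 6233 transcripts, and lost the *Sema4a* transcript (adjusted p = 0.0647), while adding *Nrp2*, *Plxna3* and the second *Sema3f* transcript. Raising the within-group variance to that of read assignment where larger, an alternative chosen after seeing the data, gave 23 pathway genes, 4996 transcripts and 16 member transcripts, with all 11 called members among them. The cause of these shifts in count was not tested. The median member difference became 0.23 at a mean level of at least 100, which leaves 28 transcripts. Centring turned *Sema3g*, which was not called, to −0.025 and changed the direction of no called member. Summed over transcripts, *Sema3b* was −1.01, *Sema3f* −0.63 and *Nrp2* 0.32. No paired analysis was possible because the columns carry no values of single libraries, and leaving out each replicate in turn was not run for the same reason.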
